A study of Mus musculus with 2 samples.

Results

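The 6 regenerating (Reg) genes of the mouse pancreas, Reg1, Reg2, Reg3a, Reg3b, Reg3d and Reg3g, and the secreted trypsin inhibitor gene Spink1 were followed in spatial transcriptomics of orthotopic pancreatic tumors. They were taken by symbol and make up 7 of the 19465 genes in the files, and all 7 were read in both libraries. Of the libraries, 1 was labelled KPC-shZEB1 and 1 was labelled KPC-shV. KPC is a mouse pancreatic cancer line, shZEB1 a short hairpin RNA against the transcription factor ZEB1, shV the control vector, and both groups share the injection of these cells into the pancreas of mice. The protocol in the labels lists 2 tumors for each group, but which of them a library holds is not given. The methods list young C57BL/6J, BALB/c and NSG mice, without tying a strain to these tumors. Gemcitabine, which the study describes for the same tissues, is not named in the labels. The hairpin was carried by the injected cells, whereas the acinar cells in a section belong to the host.

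Reg proteins are small secreted proteins with a C-type lectin fold. They are made by acinar cells, the digestive enzyme cells of the exocrine pancreas, and are known for their strong induction in pancreatitis and next to pancreatic tumors, where cytokines of the IL-6 and IL-22 families act through STAT3. Reg1 is the classic lithostathine of pancreatic juice, Reg2 is its close relative, Reg3b is the pancreatitis-associated protein, Reg3g is a lectin that kills Gram-positive bacteria in the gut, and Reg3a and Reg3d are further members of the Reg3 branch. Spink1 is packed in the same zymogen granules and blocks trypsin that is activated too early.

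The 6 Reg genes lie side by side on chromosome 6 of GRCm38, from 78370657 to 78468872, a stretch of 98216 bp, in the order Reg3b, Reg3d, Reg3a, Reg2, Reg1 and Reg3g, with Reg3d and Reg3g on the minus strand. Spink1 lies on another chromosome. The RefSeq promoter windows of the 6 Reg genes (GRCm38.p6, 250 bases before to 50 bases after the annotated start, 5′ to 3′) were searched on both strands for the STAT word TTCNNNGAA, the AP-1 word TGACTCA and the E-box word CACCTG. The E-box word, which zinc finger and bHLH factors are known to bind, was chosen after the sequences had been read. Windows of 4 genes are shown because Reg1 and Reg3b differed in how their levels ran through the acinar tissue, Reg2 ran with the Reg3 genes, and Reg3d held the most matches. Matches are in capitals.
Reg1, chr6:78425733-78426032, plus strand: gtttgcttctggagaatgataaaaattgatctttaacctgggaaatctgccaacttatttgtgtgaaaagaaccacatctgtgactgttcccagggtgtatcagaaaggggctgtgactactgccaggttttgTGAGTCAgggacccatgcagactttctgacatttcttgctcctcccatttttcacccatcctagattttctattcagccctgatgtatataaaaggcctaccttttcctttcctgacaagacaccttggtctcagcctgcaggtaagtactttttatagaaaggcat
Reg2, chr6:78404905-78405204, plus strand: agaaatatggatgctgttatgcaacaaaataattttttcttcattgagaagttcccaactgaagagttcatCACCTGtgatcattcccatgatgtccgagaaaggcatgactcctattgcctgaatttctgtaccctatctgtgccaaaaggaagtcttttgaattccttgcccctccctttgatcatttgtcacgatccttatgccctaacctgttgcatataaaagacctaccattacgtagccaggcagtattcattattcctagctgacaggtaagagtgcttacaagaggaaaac
Reg3b, chr6:78370635-78370934, plus strand: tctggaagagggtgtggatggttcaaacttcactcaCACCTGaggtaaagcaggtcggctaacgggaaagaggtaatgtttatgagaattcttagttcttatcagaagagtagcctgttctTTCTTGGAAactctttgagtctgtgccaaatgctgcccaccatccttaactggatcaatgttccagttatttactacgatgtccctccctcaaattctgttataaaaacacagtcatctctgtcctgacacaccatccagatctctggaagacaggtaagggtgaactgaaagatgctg
Reg3d, chr6:78378816-78379115, minus strand: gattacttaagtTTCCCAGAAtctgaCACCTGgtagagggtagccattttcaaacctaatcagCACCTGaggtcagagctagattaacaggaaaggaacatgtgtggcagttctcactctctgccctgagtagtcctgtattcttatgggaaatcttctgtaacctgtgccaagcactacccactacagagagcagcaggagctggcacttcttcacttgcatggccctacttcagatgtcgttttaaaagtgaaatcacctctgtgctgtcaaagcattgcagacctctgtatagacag
The E-box word was found in 4 of the 6 windows, in Reg2, Reg3a, Reg3b and, at 2 places, in Reg3d. It was in 20.2% of all 32851 promoter windows. The STAT word was in Reg3b, 129 bases before the RefSeq start, which lies inside the GENCODE gene so that both capital words of this window do too, and in Reg3d, 238 bases before it, against 8.30% of all windows. The AP-1 word was in Reg1, 117 bases before the start on the minus strand, where the capitals show its reverse complement, against 5.20% of all windows. Reg3g held none of these words. A match is a description of letters and not a binding site.

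The paralogs could be told apart by sequence. Over 15 pairs of Reg transcripts, identity ran from 48.5% (Reg2 and Reg3g) to 67.7% (Reg3b and Reg3g, and Reg1 and Reg2), and 14 pairs shared no run of 25 bases. Reg3b and Reg3g shared 11 distinct runs of that length, counted with overlap, so these need not be separate stretches. The assay reads each gene through its own hybridized probes, whose sequences were not used here, so how far a probe of one gene could read the other was not tested. For the same reason levels were compared between samples and zones for each gene, and the order of the genes in a zone is an order of probe counts, not of transcripts.

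A Visium spot covers a patch of tissue and usually mixes cell types. The spots were divided by the share of their unique molecular identifiers (UMIs) that came from 19 acinar enzyme genes, none of which is a member. Spots over 20% were named acinar-rich, spots over 1% and up to 20% border, and the others tumor. The KPC-shZEB1-labelled library held 753 acinar-rich, 190 border and 1277 tumor spots, and the KPC-shV-labelled library held 240, 192 and 3120. In acinar-rich spots the enzymes took 54.5% of the UMIs in the KPC-shZEB1-labelled library and 37.7% in the KPC-shV-labelled library, with a median depth of 66675 and 24658 UMIs per spot. Tumor spots were close in median depth (60996 and 56942.5 UMIs), but 15 of 1277 and 526 of 3120 had under 20000 UMIs. Their enzyme share was 0.144% and 0.0175%. Zeb1 itself was read in tumor spots at 14.9 and 12.6 UMIs per 1000000 UMIs (CPM), which goes against the labels, so the libraries are called by their labels throughout and every direction rests on them. In border spots Zeb1 was read at 23.2 and 15.2 CPM, in acinar-rich spots at 3.30 and 5.21 CPM and over all spots at 10.8 and 12.4 CPM. Its direction thus differed between zones. Host cells can also express Zeb1. The libraries shared 1718 spot barcodes, which mark positions on the slide and not cells.

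Each condition had 1 library, hence no test was possible. A level was the UMIs of a gene over all spots of a zone per 1000000 UMIs of that zone (CPM). Exact intervals at 95% were Poisson for levels, binomial for shares and conditional binomial for log2 ratios (the KPC-shZEB1 label over the KPC-shV label). They cover counting error only and leave out the spread between mice. Spots of 1 library are not replicates. In such mixed spots, fewer cells of a type and less RNA per cell cannot be told apart.

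All 7 genes followed the acinar tissue. Their levels were highest in acinar-rich spots, lower in border spots and lowest in tumor spots, in both libraries. Reg1 stood at 38245 CPM in acinar-rich, 9779 CPM in border and 349 CPM in tumor spots of the KPC-shZEB1-labelled library, and at 58023, 21883 and 63.3 CPM in the KPC-shV-labelled library. Reg1 alone therefore took 3.82% and 5.80% of the UMIs of acinar-rich spots. The spots of these zones stood apart, since the 10th percentile of Reg1 over acinar-rich spots was 27261 and 44585 CPM and the 90th percentile over tumor spots 506 and 126 CPM. From tumor to acinar-rich spots Reg1 was 110-fold higher in the KPC-shZEB1-labelled library and 917-fold higher in the KPC-shV-labelled library.

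Reg2 stood at 5657, 1685 and 20.3 CPM in acinar-rich, border and tumor spots labelled KPC-shZEB1, and at 10892, 3616 and 6.32 CPM in those labelled KPC-shV. Reg3a stood at 9420, 5056 and 53.4 CPM against 33897, 12687 and 23.3 CPM. Reg3b, the second by probe count, stood at 14331, 7674 and 163 CPM against 35413, 16326 and 35.7 CPM. In the KPC-shZEB1-labelled library Reg3a, Reg3b and Reg3g stepped down less from acinar-rich to border spots, by 1.86-fold for Reg3a, 1.87-fold for Reg3b and 1.63-fold for Reg3g, than Reg2 (3.36-fold), Reg3d (3.52-fold), Reg1 (3.91-fold) or Spink1 (6.29-fold). In the KPC-shV-labelled library these steps were more alike, between 2.07-fold for Reg3g and 3.03-fold for Reg3d.

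Reg3d stood at 3690, 1050 and 12.7 CPM in the 3 zones labelled KPC-shZEB1 against 6712, 2213 and 3.67 CPM in those labelled KPC-shV. Reg3g stood at 2639, 1620 and 45.1 CPM against 7688, 3705 and 17.1 CPM. Spink1, the trypsin inhibitor, stood at 1581, 251 and 5.60 CPM against 1450, 550 and 1.77 CPM. In acinar-rich spots the order by probe count was Reg1, Reg3b, Reg3a, Reg2, then Reg3d and Reg3g, which changed places between the libraries, and Spink1. Counting intervals of neighbors in that order did not overlap. Their 10th to 90th percentile ranges over spots overlapped for all neighbors labelled KPC-shZEB1, but not for all labelled KPC-shV. In the latter, the 10th percentile of Reg1 (44585 CPM) lay above the 90th of Reg3b (41577 CPM). So did that of Reg3a (26819 CPM) above Reg2 (12668 CPM), and that of Reg3d (4768 CPM) above Spink1 (1850 CPM). Reg3b ran from 2376 CPM (10th percentile) to 38717 CPM (90th percentile) over acinar-rich spots labelled KPC-shZEB1, and Reg3a from 974 to 24578 CPM.

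**Figure D1:**
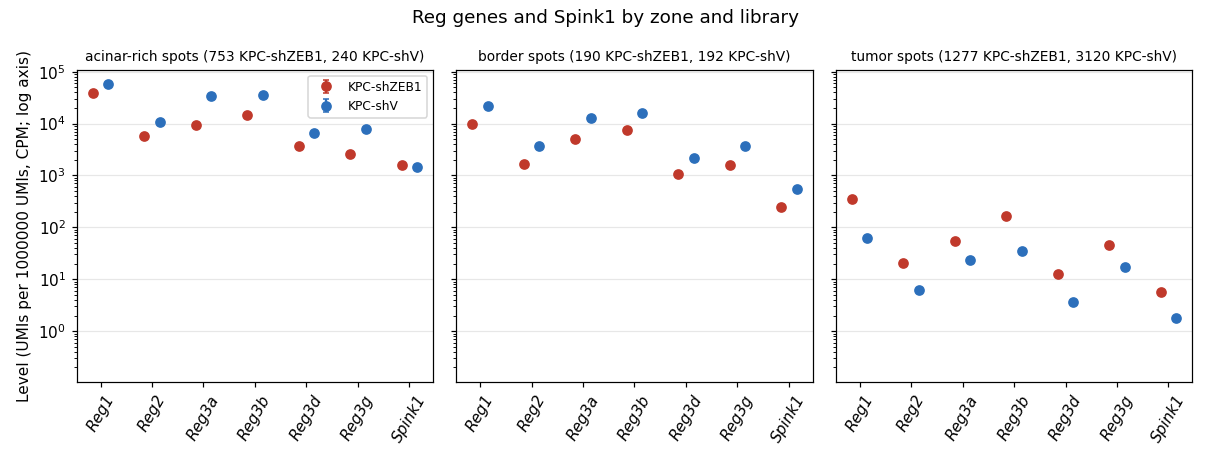
Level of each gene (CPM, log axis) in acinar-rich, border and tumor spots of the KPC-shZEB1-labelled (red) and KPC-shV-labelled (blue) libraries, with exact 95% Poisson intervals that are mostly smaller than the points. The blue points lie above the red ones in acinar-rich and border spots, except for Spink1 in acinar-rich spots (1450 against 1581 CPM), and below them in tumor spots.

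In acinar-rich spots the comparison asks whether the host pancreas in the 2 kinds of section differed in these genes. The 6 Reg genes summed took 73982 CPM in the KPC-shZEB1-labelled library and 152624 CPM in the KPC-shV-labelled library, a log2 ratio of -1.04 (95% interval -1.05 to -1.04). Reg3a had the lowest ratio at -1.85, followed by Reg3g at -1.54, Reg3b at -1.31, Reg2 at -0.95, Reg3d at -0.86 and Reg1 at -0.60. Spink1 was nearly level at 0.12 (0.09 to 0.16). Past a log2 ratio of -1 were 3 of the 7 genes, Reg3a, Reg3b and Reg3g, but so were 45.7% of the 10483 genes with at least 100 UMIs there, and the median gene stood at -0.94. Only 0.487% of the genes, and 0 of the 7, were past a log2 ratio of 1. The count of 3 of 7 is thus near that of all genes, and Spink1 lay 1.06 above the median gene. Scaling by the median of gene ratios turned Reg1 to 0.30 and Reg3d to 0.036 and left Reg3a at -0.95.

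The acinar enzymes themselves went the other way there. Summed, they had a log2 ratio of 0.53, with elastase Cela1 at 3.85, pancreatic lipase Pnlip at 2.73 and chymotrypsinogen Ctrb1 at -0.29. Per 1000 enzyme UMIs, acinar-rich spots held 70.2 UMIs of Reg1 in the KPC-shZEB1-labelled library and 154 in the KPC-shV-labelled library. For Reg2 these values were 10.4 and 28.9, for Reg3b 26.3 and 94.0, and for Reg3g 4.84 and 20.4. Spink1 was the closest of the 7, at 2.90 and 3.85 per 1000. The make-up of the Reg UMIs differed too. Reg1 took 51.7% of them in acinar-rich spots labelled KPC-shZEB1 and 38.0% in those labelled KPC-shV, and Reg3a 12.7% and 22.2%.

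Within the acinar-rich tissue labelled KPC-shZEB1, Reg3a, Reg3b and Reg3g were far lower in the spots richest in enzymes, and Reg1 and Spink1 were not. From spots of 20% to 40% enzyme share (100 spots) through 40% to 60% (484 spots) to over 60% (169 spots), Reg3b went from 33993 to 16435 to 4226 CPM. Reg3a went from 21754 to 10989 to 2581 CPM, and Reg3g from 7343 to 2961 to 588 CPM. These are 8.04-fold, 8.43-fold and 12.5-fold differences between the ends. Reg2 differed by 2.51-fold (7893 to 3144 CPM) and Reg3d by 1.85-fold (4899 to 2651 CPM). Reg1 was flat, at 40503, 37162 and 39750 CPM, and Spink1 was higher at the enzyme-rich end, at 1255, 1559 and 1723 CPM.

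A higher enzyme share by itself lowers the share left for other genes. Per 1000000 UMIs that were not from enzymes, Reg3b was still 4.51-fold higher in spots of 20% to 40% than in spots over 60%, Reg3a 4.73-fold and Reg3g 7.01-fold. On that scale Reg3d was level (1.04-fold) and Reg1 went from 59697 to 104436. The KPC-shV-labelled library had 164 spots of 20% to 40%, 76 of 40% to 60% and 0 over 60%, so the enzyme-rich end could not be compared. There Reg3b stood at 36490 and 34173 CPM and Reg3g at 8706 and 6518 CPM in the 2 ranges.

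**Figure D2:**
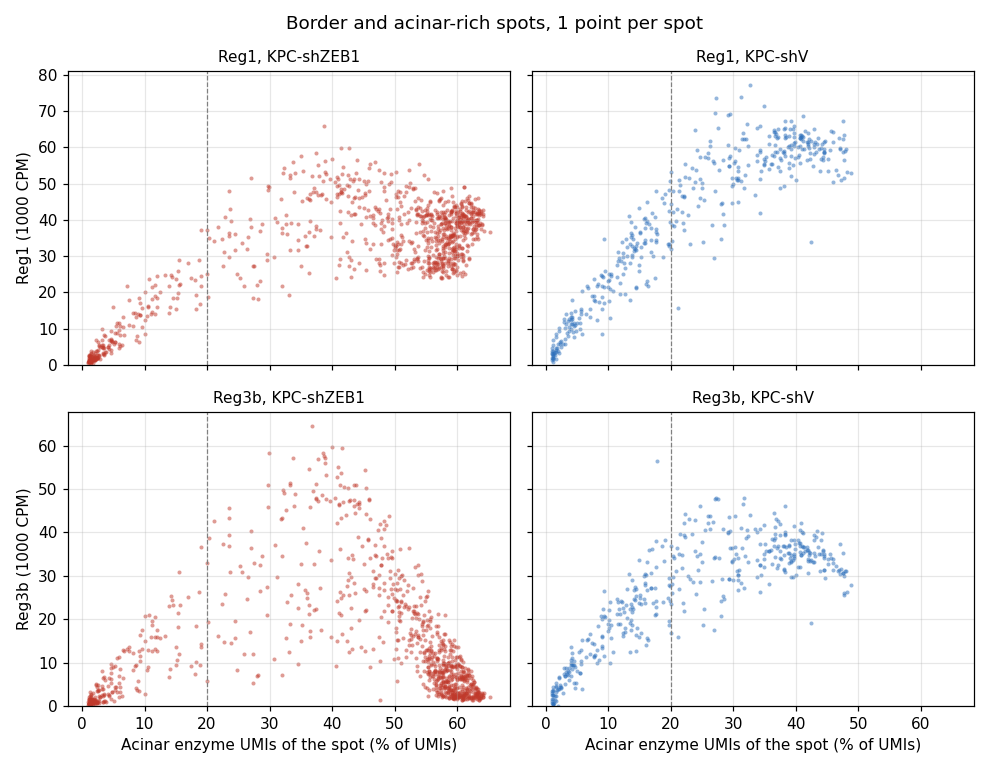
Reg1 (top) and Reg3b (bottom), in 1000 CPM, against the percent of UMIs from acinar enzymes in each border and acinar-rich spot of the libraries labelled KPC-shZEB1 (red) and KPC-shV (blue), with the dashed line at 20%. Reg3b drops toward 0 in the spots over 50% labelled KPC-shZEB1, where Reg1 stays above 20, and no spot labelled KPC-shV lies over 60%.

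Spots in the same range of enzyme share were then compared between the libraries. At 20% to 40% the ratios were small, with Reg3b at a log2 ratio of -0.10, Spink1 at -0.075, Reg3g at -0.25, Reg1 at -0.49 and Reg3a at -0.65, and the 6 Reg genes summed at -0.40. At 40% to 60% Reg3a stood at -1.62, Reg3g at -1.14, Reg3b at -1.06 and the sum at -0.96, while Spink1 stood at -0.036 (-0.079 to 0.0075), not a detectable difference at this depth. For each of the 6 Reg genes the libraries were thus closer at 20% to 40% than at 40% to 60%. The spots were less alike in the upper range, where enzymes took more of the UMIs in the KPC-shZEB1-labelled library. The highest enzyme share of a KPC-shV-labelled spot was 48.8%. Per enzyme UMI the Reg sum stood at -0.40 at 20% to 40% and at -1.26 at 40% to 60%. The part of this unlike share in the ratios was not tested, and ratios of all genes were not computed within these ranges.

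**Figure D3:**
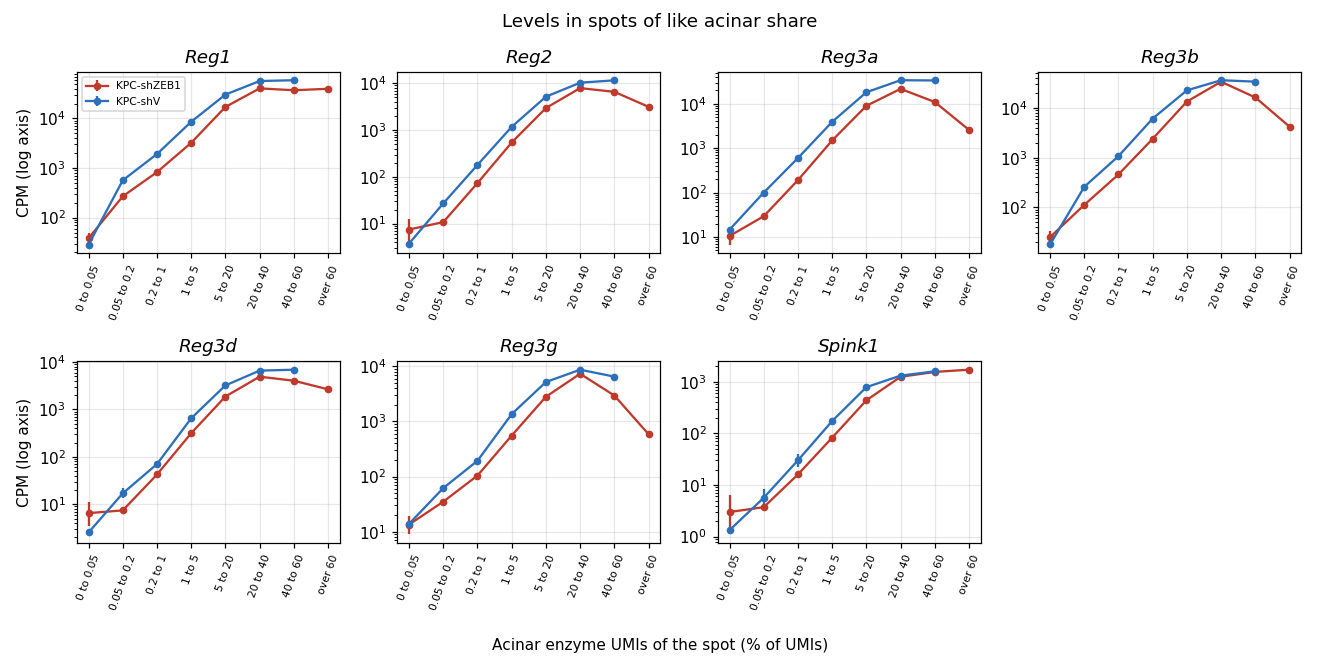
Level of each gene (CPM, log axis) in 8 ranges of enzyme share, with exact 95% Poisson intervals, for the libraries labelled KPC-shZEB1 (red) and KPC-shV (blue, no spots over 60%). Levels climb with enzyme share up to 20% to 40%, after which Reg3a, Reg3b and Reg3g turn down in the KPC-shZEB1-labelled library and Reg1 and Spink1 do not.

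The Reg3 genes and Reg2 shared 1 pattern over the acinar-rich spots labelled KPC-shZEB1. The Pearson correlation of log2(CPM + 10) over these 753 spots was 0.96 for Reg3a and Reg3b, 0.93 for Reg3b and Reg3g, 0.92 for Reg2 and Reg3b and 0.83 for Reg3b and Reg3d. Reg1 correlated with Reg3b at 0.38 and with Spink1 at 0.60, and Spink1 with Reg3b at -0.02. Over the 240 spots labelled KPC-shV, Reg3a and Reg3b stood at 0.74, Reg2 and Reg3b at 0.62, Reg1 and Reg3b at 0.70, and Reg1 and Spink1 at 0.59. The correlations describe spots that share 1 library and, within a spot, 1 total, and they carry no p. Whether they differ between the conditions was not tested.

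**Figure D4:**
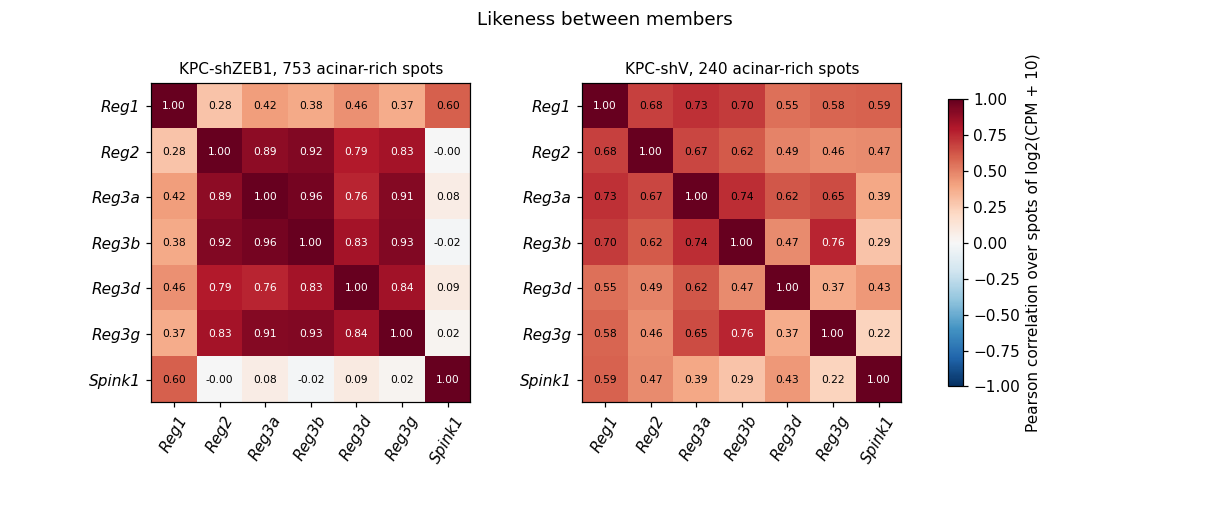
Pearson correlation of log2(CPM + 10) between the 7 genes over acinar-rich spots of the libraries labelled KPC-shZEB1 (left, 753 spots) and KPC-shV (right, 240 spots). Reg2 and the 4 Reg3 genes form a block of 0.76 to 0.96 on the left, where Spink1 lies near 0 with all of them, and the block is looser on the right.

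Other genes were ranked by the lower of the 2 libraries' correlations over acinar-rich spots. The 266 ranked genes had at least 100 CPM there and were neither members nor acinar enzymes. Most like Reg1 among them were the metallothionein Mt1 (0.58 and 0.56) and the scavenger receptor gene Dmbt1 (0.46 in both). The prostaglandin receptor gene Ptger3 (0.43 and 0.47) came next. Reg2 was followed by the zymogen granule membrane gene Gp2 (0.44 and 0.61), Mt1 and the metallothionein Mt2. Reg3a was followed by Mt1 (0.60 and 0.42), Dmbt1 (0.77 and 0.39) and the endoplasmic reticulum cyclophilin Ppib. Reg3b was followed by Gp2 (0.42 and 0.52), the acute phase gene Itih4 (0.58 and 0.42), which stands in the granule list here, and Ptger3. Reg3d was followed by Gp2, the tryptophan tRNA synthetase gene Wars and the protease inhibitor gene Spint2, and Reg3g by Itih4 (0.54 and 0.46), the ribonuclease gene Rnase4 and the poly(A)-binding protein gene Pabpc1. Spink1 had other neighbors in this ranking, the granule genes Cuzd1 (0.44 and 0.46) and Zg16 (0.41 and 0.42) and the stress gene Herpud1. The member Reg1, which was not ranked, correlated with Spink1 more closely than these, at 0.60 and 0.59.

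Other genes of the Reg pathway stood beside these values. Of 10 acute phase genes and STAT3 targets, 9 had 100 UMIs in acinar-rich spots and 8 of the 9 were past a log2 ratio of -1. Haptoglobin (Hp) was read at 2.12 CPM in the KPC-shZEB1-labelled library and 40.8 CPM in the KPC-shV-labelled library, the serum amyloid gene Saa3 at 21.1 and 288 CPM, lipocalin Lcn2 at 39.5 and 440 CPM and the STAT3 feedback inhibitor Socs3 at 18.9 and 103 CPM. The list's median of -2.08 lay below the -0.94 of all genes. Stat3 itself stood at -0.63. Of 13 genes for inducers and receptors of the Reg genes, 8 had 100 UMIs and 3 were past -1, the shared receptor Il6st (-1.66), the oncostatin receptor Osmr (-1.58) and Il17ra (-1.67), with 0 past 1, a share below the 45.7% of all measured genes. The IL-6 gene had 36 UMIs among the 54811898 of acinar-rich spots labelled KPC-shZEB1. It had 19 among the 6330133 of those labelled KPC-shV, so its share was lower under the KPC-shZEB1 label. Il22 had 0 in both, which allows up to 3 UMIs.

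Markers of fibroblasts, macrophages, neutrophils and islets were lower too in acinar-rich spots labelled KPC-shZEB1. All 6 fibroblast, 5 macrophage, 4 neutrophil and 7 islet genes were past a log2 ratio of -1, beside 45.7% of all measured genes. In that order they summed to 1472 against 6534 CPM, 286 against 961 CPM, 8.47 against 49.1 CPM and 114 against 495 CPM. Reg3b followed the summed fibroblast genes over acinar-rich spots labelled KPC-shZEB1 (Pearson 0.75), the acute phase list (0.76) and the macrophage list (0.68), and ran against the enzyme share (-0.70). In the KPC-shV-labelled library these were -0.30, 0.09, -0.38 and 0.10. Depth correlated with Reg3b at -0.18 and 0.42. The part of these cells, of the enzyme share and of depth in the Reg values was not tested.

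The other lists did not share 1 direction. Of 7 granule proteins, Sycn (1.30) and Rnase1 (1.10) were past 1 and Dmbt1 (-1.21) past -1. Of 5 acinar transcription factors 0 were past either limit, with Rbpjl at -0.97 and Ptf1a at -0.63. Of 10 cell stress genes 6 were past -1, beside 45.7% of all measured genes, with the pseudokinase Trib3 at -2.54, whereas the acinar stress gene Nupr1 stood at 0.24. Of 8 measured duct and metaplasia genes, Sox9 (-1.23) and Clu (-1.43) were past -1 and Cldn18, with 126 and 6 UMIs, past 1. Of 5 tumor epithelium genes 1, Epcam (-1.81), was past -1. The T cell genes had too few UMIs there, and the 1 measured B cell gene stood at -0.33.

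Reg genes are also made by the gut, and intestine markers were checked. The enterocyte gene Fabp2 and the Paneth cell gene Defa24 had 0 UMIs in acinar-rich spots of both libraries, and Sis was read at 0.16 and 0.79 CPM. Of 12 intestine genes, 4 had 100 UMIs there. Lgals4 and Cdh17, which tumor cells can express too, were read in tumor spots at 1076 against 328 CPM and 552 against 517 CPM. In tumor spots 11 of the 12 had 100 UMIs and 3 were past a log2 ratio of 1, beside 3.82% of all measured genes. The list summed to 1888 against 1016 CPM there, so intestine genes were not absent from tumor spots.

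In border spots, those between the limits of enzyme share, all 7 genes were lower in the KPC-shZEB1-labelled library by nearly the same factor. The 6 Reg genes summed stood at 26864 and 60431 CPM, a log2 ratio of -1.17 (-1.18 to -1.16). Single genes ran from -1.33 for Reg3a through -1.19 for Reg3g, -1.16 for Reg1, -1.13 for Spink1, -1.10 for Reg2 and -1.09 for Reg3b to -1.08 for Reg3d. Past -1 were 7 of 7, against 2.72% of the 9993 genes measured there (3.86% were past 1), and the median gene stood at 0.08. The make-up of the Reg UMIs was close in the 2 libraries, with Reg1 at 36.4% and 36.2% and Reg3b at 28.6% and 27.0%.

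The border zones were not alike in enzyme share, with a median spot at 3.71% in the KPC-shZEB1-labelled library and 9.34% in the KPC-shV-labelled library. Their summed enzymes had a log2 ratio of -0.42. Per enzyme UMI the 7 genes stood between -0.91 (Reg3a) and -0.65 (Reg3d). Within spots of 1% to 5% the Reg sum stood at -1.35, and within spots of 5% to 20% at -0.85. Of 9 measured acute phase genes only Lcn2 (-1.86) and Saa3 (-1.55) were past -1 in border spots, and the macrophage genes stood at 0.05 and the neutrophil genes at -0.41. The summed fibroblast genes were high in border spots of both libraries, at 16305 and 29460 CPM (-0.85), whereas the tumor epithelium genes, at 1855 and 1284 CPM, stood below their level in tumor spots (6146 and 6495 CPM). Islet genes were lower in the KPC-shZEB1-labelled library, 6 of 7 past -1, with Ins2 at -2.46 and Ppy at 1.89. Lymphocyte and intestine genes were higher there. All 3 measured T cell genes and all 4 B cell genes were past 1, summing to 107 against 18.2 CPM and 155 against 40.1 CPM, as were 3 of 4 measured intestine genes (722 against 137 CPM). Whether these moves bear on the Reg values was not tested.

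In tumor spots the direction was the opposite. All 7 genes were past a log2 ratio of 1, against 3.82% of the 18819 genes measured there (1.77% were past -1), with Reg1 at 2.46, Reg3b at 2.19, Reg3d at 1.80, Reg2 at 1.68, Spink1 at 1.66, Reg3g at 1.40 and Reg3a at 1.20. The levels were low. With every spot thinned to 5000 UMIs (0 and 126 spots with fewer were dropped), Reg1 was detected in 46.4% (95% interval 43.6% to 49.1%) of the tumor spots labelled KPC-shZEB1 and 14.4% (13.1% to 15.7%) of those labelled KPC-shV. Reg3b was detected in 30.9% and 10.1%, Reg3a in 21.7% and 9.59%, and Spink1 in 3.05% and 1.24%. Retina genes, which neither tissue should express, were detected in 0.23% to 0.86% of these spots, at like depth. Having no source on the slide, they cannot show how many transcripts reach a tumor spot from acinar tissue nearby. That share was not tested. Unthinned, Reg1 had a UMI in all but 20 of 1277 and all but 1476 of 3120 spots.

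The acinar enzymes differed even more there, at 1442 and 175 CPM summed, a log2 ratio of 3.04. All 7 genes of the granule list, Itih4 among them, were past 1 as well. Few spots held most of the Reg1 UMIs. The 5% of tumor spots with the most Reg1 held 65.3% of its UMIs in the KPC-shZEB1-labelled library and 66.7% in the KPC-shV-labelled library. For Reg3b these shares were 60.7% and 64.0%, and for Reg3g 52.1% and 75.3%. Reg2, Reg3a, Reg3d and Spink1 were less concentrated under the KPC-shZEB1 label, at 30.3% to 35.5%, against 42.9% to 67.2% under the KPC-shV label. Markers of other cells differed as well. All 4 T cell and all 4 B cell genes were past 1, summing to 81.9 against 15.3 CPM and 26.9 against 7.95 CPM, and 5 of 7 islet genes (52.3 against 24.1 CPM). Neutrophil genes were lower (124 against 309 CPM, 2 of 4 past -1), while macrophage and fibroblast genes stood at 0.64 and 0.30. Over tumor spots, the list closest to Reg1 was the acinar enzymes, at 0.65 under the KPC-shZEB1 label and 0.64 under the KPC-shV label. The granule list came next, at 0.64 and 0.41. Under the KPC-shZEB1 label, Reg1 correlated with the fibroblast list at 0.40, the B cell list at 0.35, the islet list at 0.32 and the T cell list at -0.03. Under the KPC-shV label these 4 values were 0.04, 0.08, 0.01 and 0.03. The part of these cells in the Reg values was not tested.

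In 2 of the 3 ranges of enzyme share among tumor spots the difference turned around. In spots of 0.05% to 0.2% (985 and 139 spots) Reg1 stood at 269 CPM in the KPC-shZEB1-labelled library and 567 CPM in the KPC-shV-labelled library, Reg3b at 112 and 258 CPM and Reg3a at 29.2 and 100.1 CPM. In spots of 0.2% to 1% (267 and 128 spots) Reg1 stood at 828 and 1922 CPM, Reg3b at 459 and 1076 CPM and Reg3a at 191 and 600.4 CPM. The log2 ratios of the Reg sum were -1.15 and -1.25, and all 7 genes were below 0 in both ranges, though the interval of Spink1 in the lower range reached 0.08. Ratios of all genes were not computed within ranges, so whether this turn is particular to the 7 genes was not tested. In spots of at most 0.05% (25 and 2853 spots) the difference did not turn around, and the Reg sum stood at 0.32 (0.11 to 0.52). There Reg1 (0.43), Reg2 (0.99), Reg3b (0.49) and Reg3d (1.35) had intervals above 0, and the intervals of Reg3a (-0.47), Reg3g (-0.042) and Spink1 (1.17) included 0. Reg1 stood at 38.4 and 28.6 CPM in this range and Reg3a at 10.5 and 14.6 CPM. The enzyme share within this range was higher in the KPC-shZEB1-labelled library. Per enzyme UMI the Reg sum stood at -1.69 (-1.89 to -1.49) here.

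**Figure D5:**
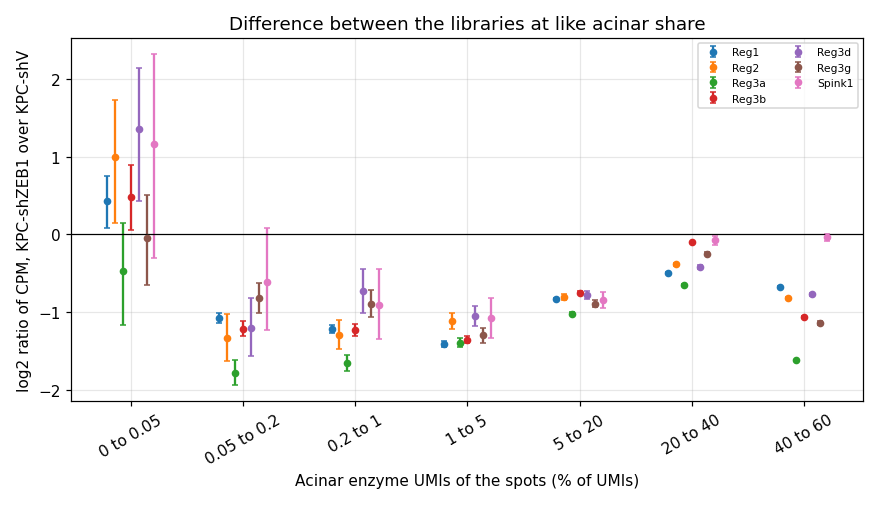
Log2 ratio of CPM, KPC-shZEB1 over KPC-shV by their labels, for each gene in 7 ranges of enzyme share held by both libraries, with exact conditional binomial 95% intervals. From 0.05% to 20% the 7 genes lie below 0, between -1.77 (Reg3a) and -0.60 (Spink1), and at 20% to 40% the 6 Reg genes lie between -0.65 and -0.10. In the range up to 0.05%, with 25 spots in the KPC-shZEB1-labelled library, 5 of the 7 genes lie above 0, from Reg1 (0.43) to Reg3d (1.35). Enzyme shares of the libraries are not equal within a range, least so in the range up to 0.05%. Ratios of all genes were not computed within ranges.

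Per enzyme UMI, each of the 7 genes was more frequent in tumor spots than in acinar-rich spots of the same library. The zones were set by the same enzyme UMIs that this ratio divides by, so a rise toward tumor spots is partly built in. Per 1000 enzyme UMIs, Reg1 had 70.2 UMIs in acinar-rich, 149 in border and 242 in tumor spots labelled KPC-shZEB1, and 154, 248 and 362 in those labelled KPC-shV. Reg3b had 26.3, 117 and 113 against 94.0, 185 and 204, and Reg3g 4.84, 24.6 and 31.2 against 20.4, 42.1 and 97.7. Reg2 had 10.4, 25.6 and 14.1 against 28.9, 41.1 and 36.1, with the highest value in border spots. Spink1 had 2.90, 3.82 and 3.88 against 3.85, 6.25 and 10.1. In each zone each of the 7 genes was lower per enzyme UMI in the KPC-shZEB1-labelled library. The ratio of the summed enzymes between the libraries was above that of 98.8% of measured genes in acinar-rich and 99.8% in tumor spots. A lower value per enzyme UMI was therefore usual for any gene in these zones. In border spots the enzyme ratio was above that of 13.0% of measured genes.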

How the data were processed

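Spatial transcriptomics from 1 library per condition was used, and the single-cell data of the study were not used here. The authors aligned the reads of the probe-based Visium CytAssist libraries to mm10 with Space Ranger 2.0.1 and deposited raw UMI counts, 1 per gene in each spot, not normalized. The libraries held 140493626 and 172059528 UMIs in 2220 and 3552 spots, so 1 CPM of a whole library is over 100 UMIs. Levels were taken per zone, where 1 CPM is fewer UMIs. Border spots held 6689648 UMIs in the KPC-shZEB1-labelled library and 3413691 in the KPC-shV-labelled library. Acinar-rich spots labelled KPC-shV held 6330133. Positions of spots and images were not analysed here.

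From the deposited counts, CPM per zone, log2 ratios and exact 95% intervals were computed in Python 3.11.15 with numpy 2.4.6, scipy 1.17.1 and pandas 2.3.3, transcripts were aligned with Biopython 1.88 and figures drawn with matplotlib 3.10.9. A gene was measured in a zone with at least 100 UMIs over both libraries. The zones used 19 of 24 listed acinar enzymes found in the files, and Krt18 of the tumor epithelium list was not used. Doublets were not called, since spots are regions. Positions came from GENCODE M21 and promoter windows from RefSeq; the RefSeq starts of Reg1, Reg2 and Reg3b lie inside the GENCODE genes.

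The genes named are the 7 members, genes of 15 lists and, for each member, the 3 genes most like it that were neither members nor acinar enzymes. The members and lists were chosen with earlier results of these data known. The computation was checked on simulated data. Alternatives were other zone limits, totals without enzymes, median-of-ratios scaling, means over spots, spot filters, leaving out the highest 5% of spots and, added after seeing the data, narrower ranges of enzyme share.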

Additional observations from a re-analysis of the deposited data

Results flagged for a closer look

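The log2 ratio (the KPC-shZEB1 label over the KPC-shV label) was below 0 in acinar-rich spots and above 0 in tumor spots for each of the 6 Reg genes. The tumor value exceeded the acinar-rich value by 3.15 for the sum of the 6 genes, by 3.06 for Reg1, 2.63 for Reg2, 3.05 for Reg3a, 3.49 for Reg3b, 2.66 for Reg3d and 2.94 for Reg3g. The median gene stood at -0.94 in acinar-rich and -0.016 in tumor spots, so it was higher in tumor spots too. The 95th percentile of all measured genes was 0.036 in acinar-rich spots, so a ratio below 0 was usual there. In tumor spots this percentile was 0.86. With 1 library per condition the difference between the zones was not tested. The acinar enzymes, which defined the zones, had log2 ratios of 3.04 in tumor and 0.53 in acinar-rich spots.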

How the results depend on the processing

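In acinar-rich spots the log2 ratio of the Reg sum (-1.04) kept its sign under all 11 alternatives. It was -0.91 with acinar-rich spots taken over 5%, -1.12 over 40%, -0.59 with enzymes out of the total, -0.15 with median-of-ratios scaling, -0.95 as a mean of spot CPM, -1.11 without the highest 5% of spots, -1.06 with spots of at least 20000 UMIs and -1.18 as a mean of gene ratios. In spots of 20% to 40% and 40% to 60% it was -0.40 and -0.96. In border spots (-1.17) it also kept its sign under all 11, at -1.35 and -0.72 with the upper limit at 5% and 40%, -1.60 and -0.85 with the lower limit at 0.5% and 5%, and -1.20, -1.24, -1.34, -1.26, -1.10 and -1.16 under the enzyme-free total, median of ratios, mean of spot CPM, without the highest 5% of spots, the 20000 UMI filter and the mean of gene ratios. In tumor spots (2.11) it was 2.03 and 1.59 with the lower limit at 0.5% and 5%, 1.56 as a mean of spot CPM, 1.92 without the highest 5% of spots, 2.18 with the 20000 UMI filter and 1.79 as a mean of gene ratios. It reversed in spots of 0.05% to 0.2% (-1.15) and 0.2% to 1% (-1.25), where the members did too, Reg1 at -1.07 and -1.21, Reg2 at -1.33 and -1.29, Reg3a at -1.77 and -1.65, Reg3b at -1.21 and -1.23, Reg3d at -1.20 and -0.73, Reg3g at -0.82 and -0.89 and Spink1 at -0.60 and -0.91. Within those ranges the enzyme shares of the libraries lie between the same limits by construction, but they are not equal. Per enzyme UMI the sum stood at -1.30 and -1.36. Ratios of all genes were not computed in those ranges. In spots of at most 0.05% (25 and 2853 spots) the sum did not reverse (0.32, interval 0.11 to 0.52). The enzyme shares were unlike there, and per enzyme UMI the sum stood at -1.69. In acinar-rich spots, median-of-ratios scaling turned Reg1 to 0.30 and Reg3d to 0.036, and Spink1 was -0.075 and -0.036 at 20% to 40% and 40% to 60%. The cause was not tested. Of 210 alternatives over 21 member values, 52 moved the value by less than its counting interval, 140 by more and 18 reversed it.

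No paired analysis was possible because each condition has 1 library and the labels give no replicate numbers. The limits are the lack of replicates, the unknown number of tumors per library, the Zeb1 level of tumor spots against the labels, and host pancreas of unequal depth and enzyme share. Counting intervals are narrow because the members are abundant, and say nothing of the spread between mice. In tumor spots depth limits Spink1, which had 442 and 287 UMIs.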
